A study of Arabidopsis thaliana and Zea mays with 12 samples.

Results

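The 10 genes described here encode the DNA cytosine methyltransferase family of Arabidopsis thaliana, namely MET1, MET2, CMT1, CMT2, CMT3, DRM1, DRM2 and DNMT2, together with the chromatin remodeler DDM1 and the methylcytosine-binding protein VIM1. They were picked by family and name, with no threshold on level, from a table of 27411 genes, and all 10 have a row in it. The question put to them was how the enzymes that copy DNA methylation after replication compare in transcript level with those that set it de novo.

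The series was made to map N4-acetyldeoxycytosine in plant DNA, and 2 of its 12 samples are mRNA-seq libraries, the source of all values given here. Both came from untreated wild-type Col-0 plants grown for 3 weeks at 22 °C, which carry no mutation or transgene. The labels name leaves as the tissue. The paper's methods for RNA speak of 2 biological replicates of plants and name no tissue, so parts other than leaves may be included. The other 10 samples, which hold immunoprecipitated or input DNA, were not analysed here.

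Plant DNA is methylated at cytosines in CG, CHG and CHH contexts, where H is any base but G, and each context has its own enzymes. MET1 restores CG methylation on the new strand after replication, with the help of VIM1 and its relatives, which bind half-methylated DNA. CMT3 maintains CHG methylation by reading the histone mark H3K9me2, and CMT2 methylates CHH sites in long heterochromatic transposons through the same mark. DRM2 is the main de novo enzyme and is guided by small RNAs, with DRM1 as its close relative. DDM1 remodels nucleosomes and so lets the methyltransferases reach heterochromatin, while DNMT2 is known as a tRNA methyltransferase. MET2 and CMT1 are relatives of MET1 and CMT3 whose roles are little known.

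All 8 methyltransferases share one catalytic step, in which the cysteine of a proline-cysteine pair attacks the target base. The coding sequence around that pair is shown for each, so that the copies can be compared with each other at this site. The 27 bases are printed in the direction of the coding strand from the TAIR10.1 assembly, with the RefSeq gene models, and the capitals mark the codons of the proline and the cysteine.
MET1, chr5:19936570-19936678, plus strand, across an intron: aatggtggacctCCATGTcagggattt
MET2, chr4:8150597-8150701, plus strand, across an intron: aacggagggcctCCATGCcaggggttt
CMT1, chr1:30344902-30344928, plus strand: tgcggtgggcccCCTTGCcaagggatc
CMT2, chr4:10418889-10418915, plus strand: tgtgggggacctCCATGCcaaggaatt
CMT3, chr1:26250499-26250525, minus strand: tgcggtgggccaCCATGCcaaggaatc
DNMT2, chr5:8871718-8871744, minus strand: cttctttctcctCCTTGTcaaccttat
DRM1, chr5:4994683-4994709, plus strand: ataggaggaagtCCGTGTaacaatctt
DRM2, chr5:4715540-4715566, minus strand: attggaggaagtCCTTGTaacaatctg

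The windows sorted only in part into the families that the names give. DRM1 and DRM2 matched at 24 of 27 bases, CMT1 and CMT3 also at 24, and MET1 and MET2 at 22. CMT2 matched CMT3 at 22 bases but CMT1 at 20. MET1 and CMT2, of different families, match at more bases than CMT1 and CMT2 do. Elsewhere between families, MET1 matched CMT3 at 18 bases, DRM2 at 15 and DNMT2 at 14. The place of the cysteine set only some of the families apart. It was codon 1198 of 1534 in MET1, 417 of 791 in CMT1 and 460 of 839 in CMT3. In CMT2 it was codon 915 of 1295, at 70.7% of the protein, nearer to MET1 (78.1%) than to CMT3 (54.8%). In the DRM enzymes, whose catalytic motifs are rearranged, it lay near the C-terminal end, at codon 583 of 624 in DRM1 and 587 of 626 in DRM2. In DNMT2 it lay at codon 89 of 383.

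The values are FPKM, in which the reads counted on a gene are divided by the length of its transcript and by the size of its library, so that levels can be compared between genes of different length. Although the table holds no read counts, its values rise in steps of whole reads. From these steps the libraries behind the values held 93100036 counted reads in replicate 1 and 105573623 in replicate 2. Of 20027 genes under 5000 reads, 19936 (99.5%) gave whole reads at a plausible transcript length, with a tolerance of 1e-06. The reads behind each gene could therefore be given, and with them an exact 95% Poisson interval for its level. These intervals cover counting error only, and they are too narrow if both ends of a read pair were counted.

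The tissue label was checked first, with counts of markers to be read beside the 47.7% of all genes above 1 FPKM. All 4 leaf markers were above 1 FPKM, from 382.5 for RCA, the activase of Rubisco, to 40786 for CAB1, a light-harvesting protein. Of 4 flower markers 0 were above 1, with AG, a floral identity gene, the highest at 0.522 FPKM. Of 5 root markers 3 were above 1, led by PYK10 at 7.50 ± 0.678 FPKM (SD, n = 2), and the root hair gene RHD6 was listed at 0. Markers of dividing cells were above 1 FPKM in 4 of 5 cases, with CDKB1;1, a mitotic kinase, at 12.2 ± 1.66. STM, which marks the shoot meristem, was at 8.73 FPKM and CLV3 at 0.137, while WUS was at 0.00872 in replicate 1 and listed at 0 in replicate 2. The part of these other cell types in the levels below was not tested. In bulk tissue, fewer cells that express a gene and less RNA per cell cannot be told apart.

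Of the 10 genes, MET1, CMT3 and DRM2 held most of the summed level. These 3 were the members with a mean above 1 FPKM, against 47.7% of all genes in the table, and 0 members were above 2, against 38.9%. Most members are long, and among genes with 2000 bases or more of exon 3 of 8 members were above 1, close to the 41.8% of all such genes. Above 0.5 FPKM there were 4 members, where the share of all genes was 55.7%, and above 0.1 FPKM there were 7, where it was 69.2%. A value above 0 in both libraries was found for 9 of 10, against 77.7% of all genes. The median of the members was 0.383 FPKM in replicate 1 and 0.391 in replicate 2, beside medians of 0.830 and 0.819 for all genes. Summed over the 10 genes, the level was 5.21 FPKM in replicate 1 and 4.96 in replicate 2. MET1, CMT3 and DRM2 together made up 71.8% and 68.4% of these sums, and 1190 of 1491 and 1241 of 1622 reads.

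**Figure D1:**
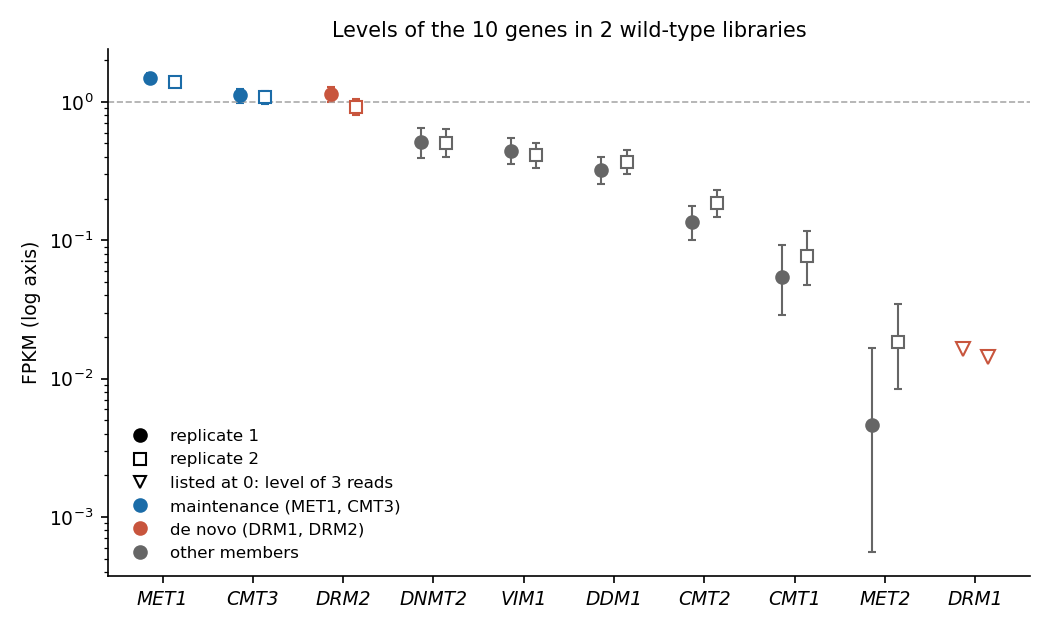
FPKM of the 10 genes (log axis) in replicate 1 (filled circles) and replicate 2 (open squares), ordered by mean, with bars for the exact 95% counting interval, a dashed line at 1 FPKM and colours for the maintenance and de novo classes. Levels run from 1.49 for MET1 in replicate 1 down to 0.00462 for MET2, and the triangles of DRM1, which is listed at 0, stand at the level that 3 reads would give.

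Among the maintenance enzymes, MET1 (AT5G49160) was the most expressed. The gene lies at chr5:19932114-19938470 on the plus strand and has 13 exons. Its level was 1.49 FPKM in replicate 1 (674 reads, interval 1.38 to 1.61) and 1.40 in replicate 2 (715 reads, 1.30 to 1.50). The libraries thus agreed within counting error, and at 1.45 ± 0.0682 FPKM (SD, n = 2) the gene stood above 56.9% of the genes in the table. Most of its family was far lower. MET2 (AT4G14140, annotated DMT2, chr4:8145998-8152131, plus strand, 12 exons) was at 0.00462 FPKM from 2 reads in replicate 1 and at 0.0183 from 9 reads in replicate 2. MET1 exceeded it 323-fold in replicate 1 (counting interval 89.2 to 2676) and 76.2-fold in replicate 2 (39.9 to 167). The MET2 values are uncertain, since its transcript matches that of AT4G08990, another gene of the family, at 94.2% over 4557 bases. AT4G08990 itself was at 0.0142 FPKM from 6 reads and 0.0209 from 10, and MEE57, the remaining relative, was listed at 0. MET1 made up 98.8% and 97.3% of the FPKM sum of these 4 genes.

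CMT3 (AT1G69770, chr1:26248118-26253687, minus strand, 21 exons) stood below MET1 in both libraries. It was at 1.11 FPKM in replicate 1 (286 reads, interval 0.986 to 1.25) and at 1.08 in replicate 2 (314 reads, 0.960 to 1.20). With a mean of 1.09 ± 0.0250 FPKM (SD, n = 2), it had a small spread between libraries beside its counting error of 5.91% and 5.64%. MET1 was 1.34-fold higher than CMT3 in replicate 1 (counting interval 1.17 to 1.55) and 1.30-fold in replicate 2 (1.14 to 1.49), so this gap exceeded counting error in each library.

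The other chromomethylases were lower. CMT2 (AT4G19020, chr4:10414428-10421265, plus strand, 24 exons) was at 0.134 FPKM from 52 reads in replicate 1 and 0.184 from 81 reads in replicate 2. CMT3 exceeded CMT2 8.28-fold (6.14 to 11.4) and 5.84-fold (4.56 to 7.55). CMT1 (AT1G80740, chr1:30342394-30347048, plus strand, 20 exons) was lower still, at 0.0539 FPKM from 13 reads and 0.0767 from 21. CMT3 exceeded CMT1 20.6-fold (11.9 to 39.2) and 14.03-fold (9.02 to 22.98). Within this family CMT3 held 85.5% and 80.5% of the FPKM sum, and the order CMT3, CMT2, CMT1 was the same in both libraries.

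Of the de novo enzymes, transcripts were counted for DRM2 and not for DRM1. DRM2 (AT5G14620, chr5:4715105-4718704, minus strand, 10 exons) was at 1.13 FPKM in replicate 1 (230 reads, interval 0.990 to 1.29) and at 0.920 in replicate 2 (212 reads, 0.800 to 1.05). It was above 1 in one library and below 1 in the other, with a mean of 1.03 ± 0.150 FPKM (SD, n = 2). DRM1 (AT5G15380, chr5:4991347-4994924, plus strand, 10 exons) was listed at 0 in both libraries. At its RefSeq length of 1973 bases, 3 reads would have given 0.0163 FPKM in replicate 1 and 0.0144 in replicate 2. A listed 0 need not mean that no transcript was there, since all 210 organelle genes of the table are also at 0, and no fold is given against it. The transcripts of DRM1 and DRM2 match at 69.1% over 1687 bases and share no stretch of 100 bases. DRM3, a relative without catalytic activity, was at 0.320 ± 0.0440 FPKM (SD, n = 2).

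DNMT2 (AT5G25480, chr5:8869865-8872262, minus strand, 9 exons) differed little between libraries, with 0.510 FPKM from 67 reads in replicate 1 and 0.503 from 75 in replicate 2. DNMT2 is not MET2, although the annotation names the product of MET2 as DNA methyltransferase 2. The DNMT2 transcript is the shortest of the members with reads, with 1411 bases behind its values, while that of MET1 has 4845.

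The helpers of maintenance were expressed at a level between those of MET1 and CMT2. VIM1 (AT1G57820, chr1:21413981-21418115, minus strand, 10 exons) was at 0.444 FPKM from 89 reads and 0.413 from 94, a mean of 0.429 ± 0.0215 (SD, n = 2). Unlike MET1 and CMT3, it was not the leading gene of its family. VIM3 was at 0.806 ± 0.0912 FPKM and VIM6 (ORTHL) at 0.740 ± 0.0222, and both were above VIM1 in each library. VIM1 made up 21.4% and 19.5% of the sum of the 6 VIM genes, in which VIM6 led in replicate 1 and VIM3 in replicate 2. VIM2 was at 0.116 ± 0.0138 FPKM, VIM4 was at 0.0115 in replicate 1 only, and VIM5 was listed at 0.

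DDM1 (AT5G66750, annotated CHR1, chr5:26648897-26653191, plus strand, 16 exons) was at 0.322 FPKM from 78 reads in replicate 1 and 0.368 from 101 in replicate 2. MET1 exceeded it 4.63-fold (3.66 to 5.94) and 3.80-fold (3.08 to 4.72). Against VIM1, the fold of MET1 was 3.37 (2.70 to 4.25) and 3.38 (2.72 to 4.24). DDM1 and VIM1 were near each other, and VIM1 was 1.38-fold higher in replicate 1 (1.004 to 1.89) and 1.12-fold in replicate 2 (0.839 to 1.50). The interval of replicate 2 includes equal levels.

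By mean level, the order was MET1, CMT3, DRM2, DNMT2, VIM1, DDM1, CMT2, CMT1, MET2 and DRM1. The ranges over the 2 libraries overlapped for CMT3 and DRM2 alone among neighbours in this order. Counting error blurred further steps, the one from VIM1 to DDM1 given above, the one from DNMT2 to VIM1 and the last. That last step, from MET2 to DRM1, set 2 and 9 reads against a listed 0. In replicate 1 the MET2 interval reached 0.0167 FPKM, above the 0.0163 that 3 reads of DRM1 would give. DNMT2 was 1.15-fold above VIM1 in replicate 1 (0.824 to 1.60) and 1.22-fold in replicate 2 (0.887 to 1.67), and both intervals include 1. By contrast, DRM2 exceeded DNMT2 2.22-fold (1.68 to 2.96) and 1.83-fold (1.40 to 2.41). The remaining steps were 2.40-fold and 2.00-fold from DDM1 to CMT2, 2.49-fold and 2.40-fold from CMT2 to CMT1, and 11.7-fold and 4.18-fold from CMT1 to MET2. The counting intervals of these steps excluded equal levels in both libraries.

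Maintenance enzymes, taken as MET1 plus CMT3, exceeded the de novo enzymes DRM1 plus DRM2 in both libraries. In replicate 1 the sums were 2.61 and 1.13 FPKM, a ratio of 2.30. In replicate 2 they were 2.47 and 0.920 FPKM, a ratio of 2.69. On the log2 scale the mean difference was 1.32 ± 0.16 (SD, n = 2), with log2 ratios of 1.20 and 1.43. The sums set 2 expressed maintenance genes against 1 expressed de novo gene, since DRM1 was listed at 0. With DRM1 left out and the mean of MET1 and CMT3 set over DRM2, an alternative chosen after the data were seen, the log2 ratio was 0.32.

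Gene by gene, MET1 exceeded DRM2, while CMT3 did not differ from it beyond counting error. MET1 was 1.32-fold above DRM2 in replicate 1 (counting interval 1.14 to 1.54) and 1.52-fold in replicate 2 (1.30 to 1.78). CMT3 was 0.982 times DRM2 in replicate 1 (0.823 to 1.17) and 1.17 times in replicate 2 (0.980 to 1.40), which changes direction between libraries and includes 1 in both. CMT2, which is often set beside DRM2 because both methylate CHH sites, was 0.119 times DRM2 (0.0860 to 0.161) and 0.200 times (0.153 to 0.260). Counted with the de novo enzymes, CMT2 brought the log2 ratio of maintenance to de novo to 1.10, and counted with maintenance it gave 1.40. With 2 libraries of 1 condition, no test of these differences was made, because an exact permutation test cannot give a p below 0.5.

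**Figure D2:**
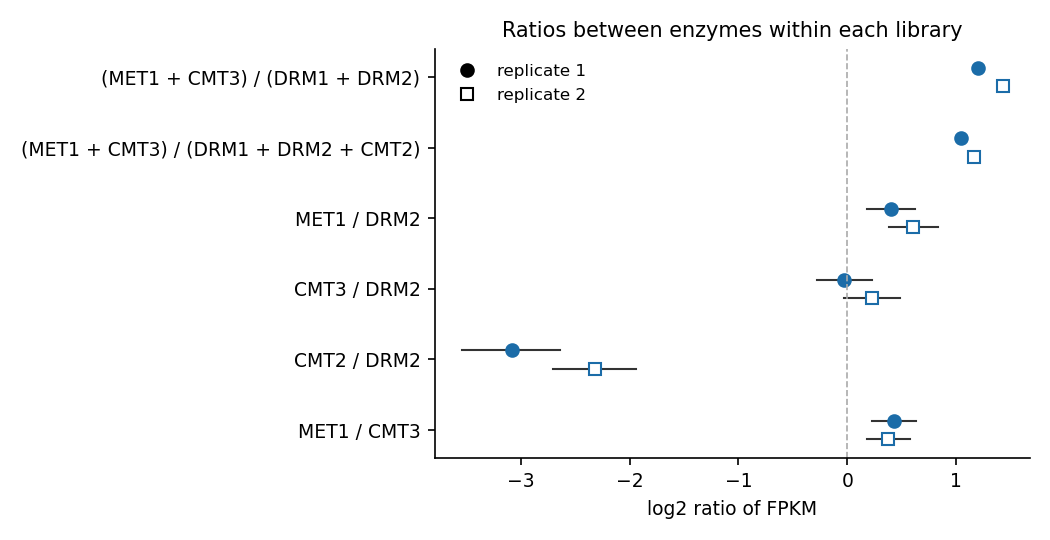
Log2 ratios of FPKM between enzymes within replicate 1 (filled circles) and replicate 2 (open squares), with a dashed line at equal levels and, for single pairs, bars for the exact 95% counting interval. The summed maintenance enzymes stand at 1.20 and 1.43 over the de novo enzymes, MET1 lies above DRM2 in both libraries, and CMT3 over DRM2 straddles 0.

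The libraries were compared gene by gene for the 10 members. Of these, 5 were lower in replicate 2, namely MET1, CMT3, DRM2, DNMT2 and VIM1, while DDM1, CMT2, CMT1 and MET2 were higher and DRM1 was at 0 in both. Among all 22540 genes above 0 in either library, 61.1% were lower in replicate 2. These directions depended on how the libraries were scaled and on whether 1 was added to each value. On log2 of FPKM + 1, centred on the median of genes above 1 FPKM, -0.07, 1 member (DRM2) was lower. The same held for 36.3% of the 22540 genes. The added 1 pulls weakly expressed genes toward 0, above this centre, so these counts do not give their direction. MET1 and VIM1 counted as higher there, although their FPKM ratios, 0.935 and 0.931, are below the median ratio of 0.942. With replicate 2 scaled to the median FPKM ratio of genes above 1 FPKM, chosen after the data were seen, 3 members (MET1, DRM2 and VIM1) were lower. As deposited, DRM2 in replicate 2 was at 0.813 times its level in replicate 1 (counting interval 0.671 to 0.984), and after this scaling at 0.862 times (0.712 to 1.04), which includes equal levels. MET1 was at 0.935 times (0.841 to 1.04) and after scaling at 0.993 times (0.892 to 1.10). CMT2 was at 1.37 times (0.958 to 1.99) and after scaling at 1.46 times (1.02 to 2.11). No member thus differed beyond counting error both as deposited and after scaling. On log2 of FPKM + 1, where the added 1 damps the ratios of weakly expressed genes, 0 members differed 1.5-fold or more, and 0.383% of all genes did. A gene below 0.5 FPKM in both libraries cannot reach that fold there, as holds for VIM1, DDM1, CMT2, CMT1, MET2 and DRM1. In FPKM without the added 1, MET2 was 3.97-fold higher in replicate 2 (counting interval 0.821 to 37.7). Each library stands alone on its side of this comparison, so no test was made.

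Transcript length bears on these counts, since most of the genes are long. The members' RefSeq transcripts have a median length of 2682 bases, and the median over the genes of the table is 1541. Of the 7977 genes with 2000 bases or more, 56.7% were above 0.5 FPKM, with a median of 0.694. Of the 8 members of that length, 3 were above 0.5, the same 3 that were above 1. Without the division by length, the maintenance genes gained, because MET1 is 4845 bases long and DRM2 2183. In reads, MET1 and CMT3 held 960 and DRM2 230 in replicate 1.

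**Figure D3:**
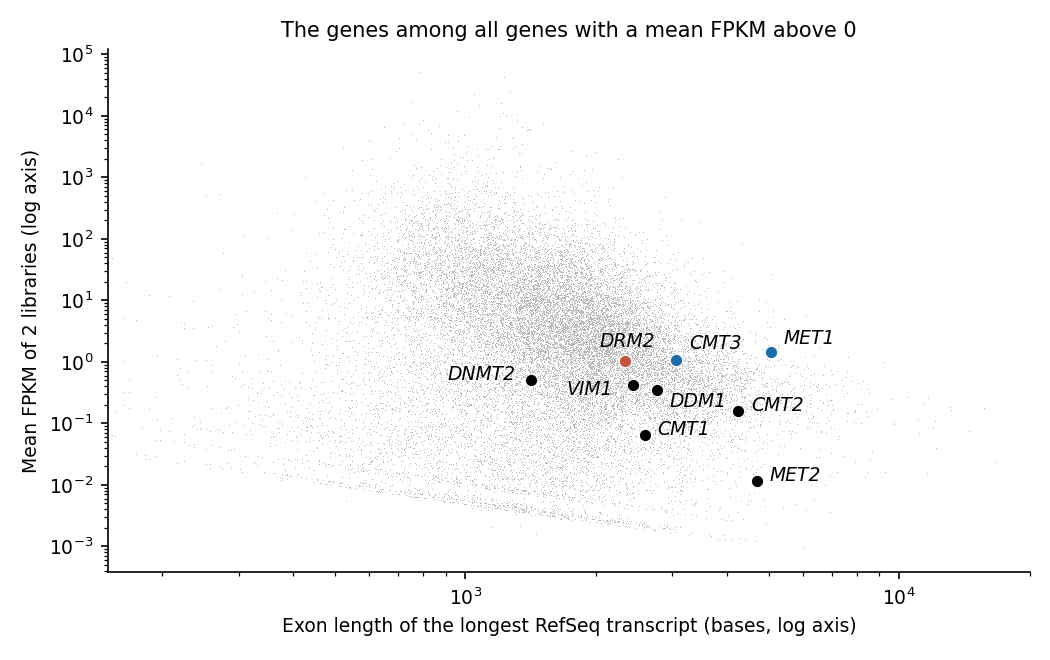
Mean FPKM of 2 libraries (log axis) against the exon length of the longest RefSeq transcript in bases (log axis) for all genes with a mean above 0 (grey) and for the 9 members above 0 (blue, maintenance; red, de novo; black, others). Most of the members lie to the right of the bulk of the genes, and MET1, CMT3 and DRM2 stand at about 1 FPKM among them.

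Genes related to these enzymes by family or function were described through 7 lists of 68 genes. The list of other members of the same families holds 8 of them, with 0 above 1 FPKM. Of the 68, 22 were above 1 FPKM, beside 47.7% of all genes and 41.8% of genes with 2000 bases or more of exon. Of the 4 genes that write or remove the histone mark read by CMT2 and CMT3, 0 were above 1 FPKM. SUVH4, the main H3K9 methyltransferase of this pathway, was at 0.456 ± 0.0824 FPKM (SD, n = 2) and SUVH6 at 0.309 ± 0.0220. IBM1, which removes H3K9 methylation from genes, was at 0.304 ± 0.00481, and SUVH5 was lowest at 0.0359 ± 0.00190. CMT3 was higher than all 4 in both libraries, and CMT2 was above SUVH5 only.

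The small RNA pathway that leads to DRM2 had a wide range. Of 22 genes, 5 were above 1 FPKM, beside 47.7% of all genes, and the median of the 22 was 0.109. RDM1, a protein that links AGO4 to DRM2, was at 28.0 ± 6.66 FPKM (SD, n = 2). NRPD4, a polymerase subunit, was at 6.05 ± 0.476, SHH1, which brings polymerase IV to chromatin, at 3.31 ± 0.0945, and SUVH9, which recruits polymerase V, at 2.57 ± 0.517. All 4 were higher than DRM2. The largest subunits of the polymerases, NRPD1 and NRPE1, were far below it at 0.0304 and 0.0373 FPKM, and CLSY4 was the lowest of the list at 0.00437. The 4 demethylases, which take methylated cytosine out of DNA, ranged from 0.229 FPKM for DME to 0.495 for ROS1 and were all below DRM2.

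The genes that supply and clear the methyl donor were on another scale. Of 11 genes, with a median of 51.9 FPKM, 10 were above 1 FPKM, beside 47.7% of all genes. SAHH1, which breaks down the S-adenosylhomocysteine that every methylation releases, was at 652 ± 26.8 FPKM (SD, n = 2), MS1, a methionine synthase, at 202 ± 8.20, ADK1, an adenosine kinase, at 89.1 ± 7.16 and SAHH2 at 79.8 ± 3.21. The lowest, MS3, was at 0.337 ± 0.0231, a level near that of DDM1. These enzymes serve all methylation in the cell and not DNA alone.

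Of 10 DNA replication genes, with a median of 0.551 FPKM, 4 were above 1 FPKM, near the 47.7% of all genes. TSO2, the small subunit of ribonucleotide reductase, was at 32.1 ± 1.67 FPKM (SD, n = 2), the sliding clamp genes PCNA1 and PCNA2 at 4.30 ± 0.0906 and 2.98 ± 0.221, and RNR1, the large subunit of ribonucleotide reductase, at 1.43 ± 0.0412. ICU2, the catalytic subunit of DNA polymerase alpha, was lowest at 0.0711. MET1, which acts behind the replication fork, was thus below TSO2 and both clamp genes. It was close to RNR1 and above the other replication genes of the list. Beside the same 47.7% of all genes, 3 of 9 other silencing and remodelling genes were above 1 FPKM. They were AT1G06760 at 42.3 ± 3.74, AT2G30620 at 34.2 ± 1.46 and the histone deacetylase gene HDA6 at 1.32 ± 0.148, followed by the remodeler PKL at 0.547. The lowest was MOM1, a silencing factor that works without changing DNA methylation, at 0.0735 FPKM. DDM1 was below HDA6 and PKL and above MOM1.

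**Figure D4:**
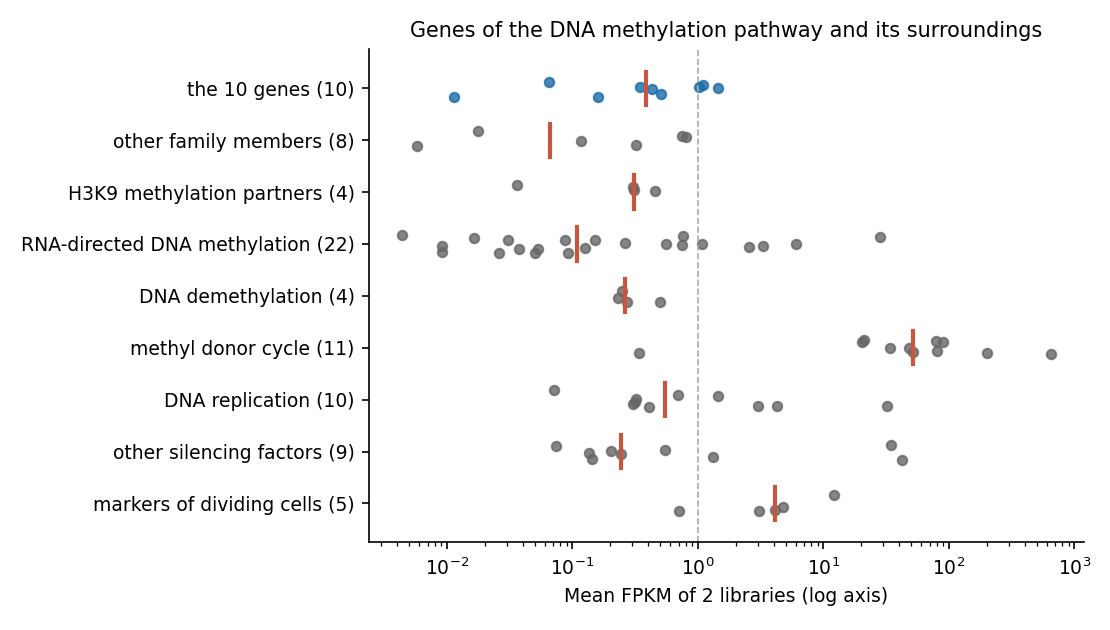
Mean FPKM of 2 libraries (log axis) for the 10 genes (blue) and for 7 lists of related genes and the markers of dividing cells (grey), with the number of genes in brackets, a red bar at each list's median and a dashed line at 1 FPKM. Genes listed at 0 are not drawn but count in the medians, and the methyl donor cycle, with a median of 51.9 FPKM, lies far to the right of the 10 genes.

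For MET1, CMT3, DRM2 and DDM1, the genes of nearest level were sought among 77 genes, which were the other members and the 7 lists. Likeness was measured as the distance of log2 of FPKM + 1 over the 2 libraries, so it reflects level alone. Nearest to MET1 was RNR1 at a distance of 0.0183, with 1.46 and 1.41 FPKM, followed by HDA6 (0.174) and CMT3 (0.318). Nearest to CMT3 was IDN2, a factor of the small RNA pathway, at 0.0596, with 1.03 and 1.11 FPKM, then DRM2 (0.114) and HDA6 (0.232). DRM2 had CMT3 nearest (0.114), then IDN2 (0.151) and VIM3 (0.294). Nearest to DDM1 were MCM5, a subunit of the replicative helicase, at 0.0418, the histone chaperone gene FAS1 at 0.0529 and MS3 at 0.0611.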

How the data were processed

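RNA was sequenced from 2 wild-type replicates as paired-end reads. Per the submitters' processing notes, TopHat2 2.0.9 placed reads on TAIR10, and the authors deposited FPKM values from Cufflinks 2.1.1. Not given in the sources used here are the annotation release, whether strand was used, and how reads with several matches were counted. Annotated overlaps of members with other genes were 0. Read counts were recovered from the step size shared by 218 genes in replicate 1 and 214 in replicate 2, and gave exact Poisson intervals for levels and exact conditional intervals for ratios, at 95%. Depth was 93100036 and 105573623 counted reads. Positions, lengths (26714 of 27411 IDs, 97.5%) and sequences came from RefSeq's TAIR10.1, similarity from blastn 2.17.0, and shared stretches from a search of 100-base words in the genome. In that search 109 of 4595 words of MET2 occurred elsewhere and 0 of each other member. Read recovery and ratio intervals were tried on Poisson counts simulated with the same steps and lengths. That trial checks the arithmetic only, and not how the deposited values were made.

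The members, lists and alternatives were chosen with earlier results of these data known. All members are named, with up to 4 genes of each list by highest mean FPKM, its lowest gene, and the 3 genes nearest to each of MET1, CMT3, DRM2 and DDM1. NRPD1, NRPE1, CLV3 and WUS, and the relatives of the members, were named after their values were seen. Alternatives were other units, scalings, thresholds, gene sets and pseudocounts, and each replicate left out. Python 3.11.15 was used with pandas 2.3.3 and scipy 1.17.1.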

Additional observations from a re-analysis of the deposited data

How the results depend on the processing

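No paired analysis was possible because 1 condition alone has values here. Maintenance exceeded de novo enzymes under every alternative run. Alternatives that add genes to the maintenance side can only raise the ratio, so they do not test this. The log2 ratio, 1.32, became 1.10 with CMT2 among the de novo enzymes, 1.70 with DDM1 and VIM1 among the maintenance genes, 0.67 as a difference of mean log2(FPKM + 1), 2.17 in reads and, chosen after the data were seen, 0.32 without DRM1, each by the construction of the alternative. With either replicate alone it was 1.20 or 1.43. The median of the members was 0.393 as TPM, against 0.387 as FPKM, and 0.383 to 0.391 by replicate. Above 2 FPKM there were 0 members (38.9% of all genes), against 3 above 1, and 2 to 3 with a replicate left out, since DRM2 was below 1 in replicate 2. On log2 of FPKM + 1 centred on the median of genes above 1 FPKM, -0.07, 1 member (DRM2) was lower in replicate 2, against 5 before. That count is set in part by the added 1, which lifts weakly expressed genes above the centre. With replicate 2 scaled to the median FPKM ratio of genes above 1 FPKM, chosen after the data were seen, 3 members were lower. DNMT2 was at 0.514 as TPM. Without replicate 2, MET2 was at 0.00462 and without replicate 1 at 0.0183, against a mean of 0.0115. MET2, with 2 and 9 reads, and CMT1, with 13 and 21, are limited by depth, with counting errors of 70.7% and 33.3% for MET2.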
